A study of Gossypium hirsutum with 16 samples.

Results

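The genes described here are the 150 transcripts of the cotton shoot apex that were lowest in control seedlings of a short-branch strain, measured against control seedlings of a nulliplex-branch strain and against both strains after silencing of GhBRC1. They were chosen by their measured levels from 70422 gene IDs. In each of the 3 other groups the median had to reach 2 FPKM (a count of fragments corrected for gene length and for the size of the library), which left 37463 IDs. These were ranked by the lowest of the 3 medians over the median of the short-branch controls, with 0.5 FPKM added to both, and the first 150 were taken. That the short-branch controls are low in these genes is therefore a choice and not a result, and it is described below with no test.

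The plants were upland cotton, Gossypium hirsutum, an allotetraploid whose chromosomes belong to an A and a D subgenome, and RNA came from the shoot apex of seedlings in 16 libraries of 4 per group. The groups were silenced and control seedlings of Jinxian-short branch, a strain with short fruiting branches called JX here, and silenced and control seedlings of 3798, a nulliplex-branch strain in which flowers arise at the main stem without a drawn-out fruiting branch. Silencing was by VIGS, virus-induced gene silencing, in which a virus carrying a piece of a plant gene directs the plant's own RNA interference against that gene's transcript. The labels do not say what the controls received, nor whether the libraries of a group are separate plants, and the spread behind every p-value may thus be technical.

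BRC1 (BRANCHED1) is a transcription factor of the TCP family. In Arabidopsis, tomato and pea it acts inside axillary buds and holds back their outgrowth, and strigolactone, cytokinin, light and sugar act in part through its expression. A shoot apex sample holds the meristem together with young leaves and the youngest axillary buds, so a transcript can differ between bulk samples through fewer cells of a type or through less RNA per cell, which cannot be told apart here. The sources used here do not pair the IDs with gene names, and 0 of the IDs matched the 99454 RefSeq genes of assembly Gossypium_hirsutum_v2.1. Genes are therefore given by ID, no function is assigned to them, the labelled tissue was not checked against marker genes, and the level of GhBRC1 itself was not analysed here.

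The 150 genes together made up between 0.514% and 1.52% of all FPKM in the JX silenced libraries and between 0.122% and 0.180% in the JX controls. In 3798 they made up between 0.675% and 1.33% in the silenced libraries and between 0.299% and 0.988% in the controls. Their summed level averaged 5969 ± 2230 FPKM in JX silenced, 860.0 ± 137 FPKM in JX controls, 6373 ± 1769 FPKM in 3798 silenced and 4327 ± 1762 FPKM in 3798 controls (SD, n = 4 each). The total over all genes lay between 552185 and 603167 FPKM per library, and the median of the 37463 eligible IDs stayed between 7.38 and 7.77 FPKM in every library. Absolute sequencing depth is unknown, since no counts were available.

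**Figure D1:**
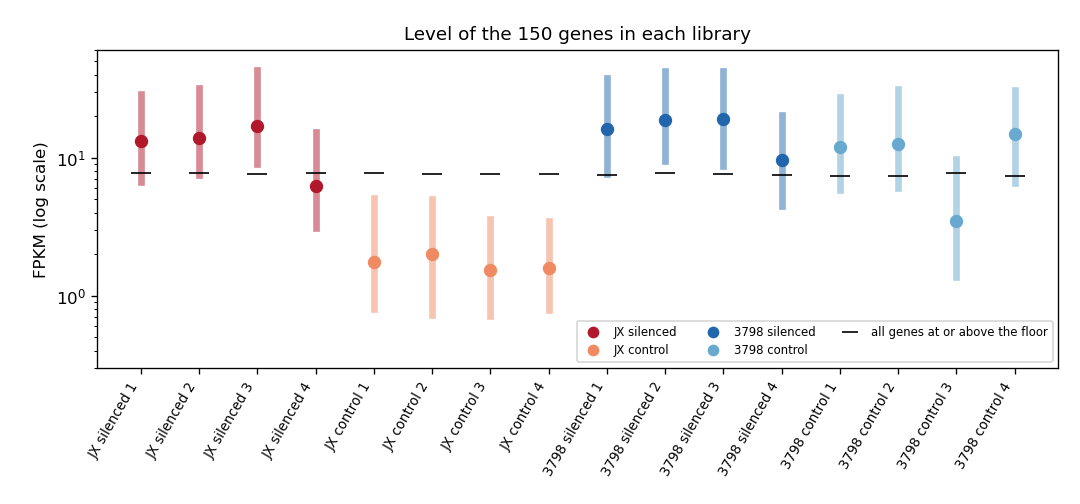
Level of the 150 genes in each of the 16 libraries, in FPKM on a log scale. Dots are the median over the genes, bars span the lower to the upper quartile, and the black dash is the median of all 37463 eligible IDs. The 4 JX controls sit at 1.53 to 2.02 FPKM, 3798 control 3 at 3.46 FPKM, and JX silenced 4 and 3798 silenced 4 at 6.24 and 9.61 FPKM, with the 9 other libraries between 11.97 and 19.1 FPKM.

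The ratio that chose the genes had a median of 3.85 over the 150, ran up to 49.9, was at least 5 in 38 of them and at least 10 in 4. Over all eligible IDs its median was 0.908. The last gene inside was Gh_D01G242400, with medians of 4.51 FPKM in JX silenced, 1.15 in JX controls, 5.30 in 3798 silenced and 6.56 in 3798 controls. The first outside was Gh_D10G049500, with medians of 17.9, 3.31, 15.1 and 11.1 FPKM in the same order, and both had a ratio of 3.03. Nothing separates them, and the list is the upper end of a continuous range. When another group took the place of the JX controls in the same rule, the gene ranked 150 had a ratio of 1.33 for JX silenced, 1.48 for 3798 silenced and 1.88 for 3798 controls. A ratio of at least 2 was reached by 508 IDs for the JX controls, against 18 for JX silenced, 18 for 3798 silenced and 94 for 3798 controls.

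**Figure D2:**
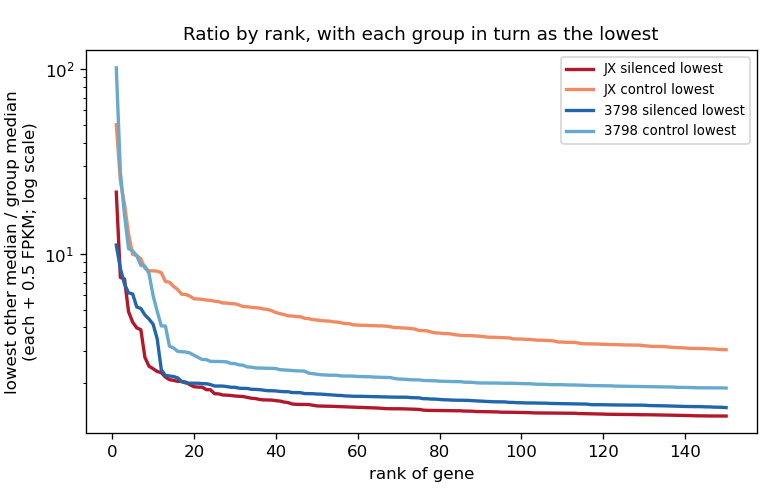
Ratio of the lowest median of the 3 other groups to the median of the named group, each with 0.5 FPKM added, for the 150 IDs ranked first when each group in turn is the lowest (log scale). At rank 150 the line for the JX controls stands at 3.03, above the lines for the 3798 controls (1.88), 3798 silenced (1.48) and JX silenced (1.33).

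The group medians of the 150 genes spanned 2.13 to 533 FPKM in JX silenced, 0 to 127 FPKM in JX controls, 2.69 to 690 FPKM in 3798 silenced and 2.01 to 627 FPKM in 3798 controls. In the JX controls 51 genes had a median under 1 FPKM and 1 gene a median of at least 100 FPKM, while 16 genes reached 100 FPKM in JX silenced, 14 in 3798 silenced and 8 in 3798 controls. After adding 0.5 FPKM and taking log2, by which changes of low genes come out too small, the difference of JX silenced minus JX control was between 1.13 and 6.64 with a median of 2.10, and that of JX control minus 3798 control was between -4.31 and -0.60 with a median of -1.94. Both comparisons were used by the choice and share the JX controls.

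Gh_D07G208200, on chromosome D07, was 1 of the 2 genes with the highest level. It was at 467, 684, 598 and 145 FPKM in JX silenced libraries 1 to 4 and at 36.2, 67.3, 36.3 and 35.3 FPKM in JX controls 1 to 4. In 3798 it was at 328, 515, 461 and 163 FPKM in the silenced libraries and at 355, 288, 89.3 and 228 FPKM in the controls. The JX controls lay below each of the 12 other libraries, and library 4 of either silenced group and 3798 control 3 were each the lowest of their group. The other, Gh_A10G166600 on chromosome A10, was at 411, 578, 416 and 162 FPKM in JX silenced and at 102, 153, 152 and 88.9 FPKM in JX controls. In 3798 it was at 773, 606, 815 and 345 FPKM in the silenced libraries and at 606, 649, 306 and 852 FPKM in the controls. The same 3 libraries were again the lowest of their groups, and the JX controls again lay below all others.

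The name "lowest in short-branch controls only" holds for group medians but not for every single library in every gene. In 3798 control 3 the 150 genes stood 0.74 above the median of the JX controls (median log2 difference), while they stood 2.40 to 2.49 above it in the 3 other 3798 controls. Of the 150 genes, 79 were in 3798 control 3 under 2 times the JX control median, against 1, 4 and 4 genes in 3798 controls 1, 2 and 4. Library 3798 control 3 was still above all 4 JX controls for 102 genes. The choice used the JX controls, and the matching shares of eligible IDs were not counted, so these counts are descriptions only. Within its group 3798 control 3 was at a median of 31.3% of the other controls (FPKM + 0.5), with a median log2 difference of -1.68 for the 150 genes and 0.04 for all eligible IDs.

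Library 4 of both silenced groups was low in these genes as well. JX silenced 4 differed from the rest of its group by a median log2 of -1.20 and 3798 silenced 4 by -0.88, against 0.01 and -0.01 for all eligible IDs. JX silenced 4 was the lowest of its group in 126 of the 150 genes (84.0%, against 32.6% of eligible IDs). The lowest of its group was 3798 silenced 4 in 127 genes (84.7%, against 32.7%) and 3798 control 3 in 138 genes (92.0%, against 31.7%). All 3 libraries were the lowest of their groups together in 108 genes (72.0%, against 10.2% of eligible IDs). All 4 JX controls lay below all 12 other libraries for 89 genes and below the 9 libraries left without these 3 for 135. Among eligible IDs this held for 4.88% and 12.2%. The comparison with the JX controls was used by the choice, so nothing is read from these last counts. What sets the 3 libraries apart was not tested. All 3 deviated downward in these genes and thus toward the JX controls. The choice gives that direction to any library that is low in its group, so no likeness to the JX controls is read from it. The 3 libraries are used under their labels, which were not checked by the level of GhBRC1. Group means and calls that include them hold only as far as those labels do.

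**Figure D3:**
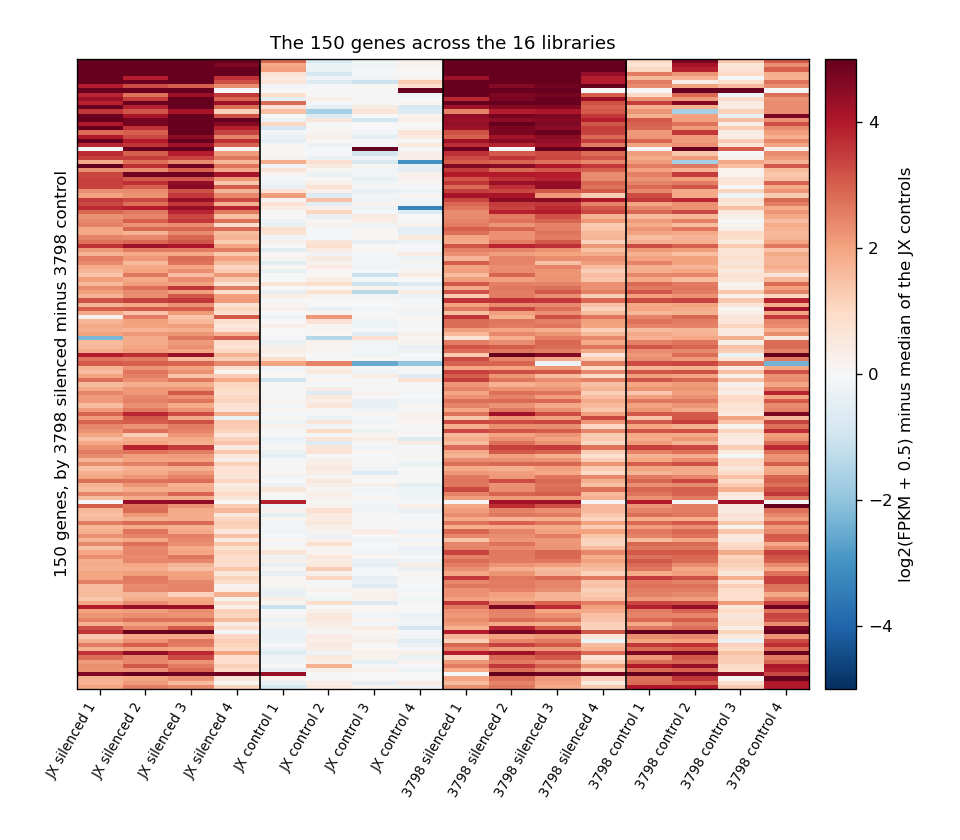
The 150 genes (rows) in the 16 libraries (columns), as log2(FPKM + 0.5) minus the median of the JX controls, with rows ordered by 3798 silenced minus 3798 control from high to low. The JX control columns are pale by construction, 3798 control 3 is nearly as pale, with a median of 0.74, and library 4 of both silenced groups is paler than the rest of its group, with medians of 1.21 in JX and 1.83 in 3798; the 3798 controls are paler than the 3798 silenced libraries in the top rows.

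Among the JX controls, JX control 2 was the highest of the group in 73 of the 150 genes, against 26.2% of eligible IDs, and its median stood 0.18 above the group median on the log2 scale, with -0.06 to 0.01 in the 3 others. The standard deviation of log2 values within a group had a median of 0.68 in JX silenced, 0.36 in JX controls, 0.53 in 3798 silenced and 0.90 in 3798 controls. For all eligible IDs these medians were 0.18, 0.15, 0.17 and 0.20. Without the 3 libraries named above they were 0.32, 0.36, 0.29 and 0.26 for the 150 genes, against 0.140, 0.147, 0.135 and 0.135 for all eligible IDs.

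Over the 12 libraries outside the JX controls, the correlation of a gene's log2 values with the median profile of the 150 had a median of 0.768. It was at least 0.8 for 61 genes, under 0.5 for 18 and under 0 for 3. These 12 points share group membership and the 3 low libraries, and the profile includes each gene itself, so the values describe likeness only.

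Some genes entered with values that scattered within groups. Both genes with the highest ratio belong here. Gh_A10G221800, on chromosome A10, was at 132, 89.5 and 315 FPKM in JX silenced 1 to 3 and listed at 0 in JX silenced 4, and it was listed at 0 in JX controls 1 to 3 and at 18.1 FPKM in JX control 4. In 3798 it was at 223, 220.2 and 254 FPKM in silenced 1 to 3 and listed at 0 in silenced 4, and at 191 and 48.9 FPKM in controls 2 and 3 and listed at 0 in controls 1 and 4. High and zero libraries thus occurred in all groups. Gossypium_hirsutum_newGene_9684, whose ID gives no position, was at 12.1, 22.0, 14.1 and 13.3 FPKM in JX silenced, and at 9.63 FPKM in JX control 1 and listed at 0 in the 3 other JX controls. In 3798 it was listed at 0 in silenced 1 and at 17.5, 14.1 and 12.99 FPKM in silenced 2 to 4, and at 18.8, 13.2, 10.5 and 4.45 FPKM in the controls.

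Another gene of this kind, chosen after its values were seen, had only high and near-zero libraries. Gh_D03G192700, on chromosome D03, was at 12.3 and 12.6 FPKM in JX silenced 2 and 3, at 8.25 FPKM in JX control 1, at 10.7 and 10.9 FPKM in 3798 silenced 2 and 3, and at 9.12 and 10.7 FPKM in 3798 controls 1 and 3. In the 9 others it was between 0.0697 and 0.133 FPKM, so each group held both states. Counted over all 150, and without the 3 low libraries, 12 genes spanned a log2 range of at least 3 within 1 or more groups, and 9 did so in 2 or more. The matching share of eligible IDs was not counted, so these numbers are descriptions only.

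In the comparison of 3798 silenced with 3798 control libraries, the difference itself uses no JX library. All 16 libraries entered its filter and its estimate of the spread. Both medians entered the choice of genes through the floor and as candidates for the lowest of 3. The lowest of 3, which was ranked against the JX controls, was the 3798 control median for 71 genes. It was the JX silenced median for 62 and the 3798 silenced median for 17. The counts that follow are thus not free of the choice. All 150 genes passed the filter on low values, at least 0.5 FPKM in 4 libraries, as the choice ensures. Of the 150 genes, 23 rose in silenced libraries and 0 fell by limma at a Benjamini-Hochberg adjusted p under 0.05 over all 55040 IDs tested, where 7.51% of all IDs were higher and 5.28% lower. The 23 make 15.3% of the 150. At an unadjusted p under 0.05 there were 37 higher and 1 lower, where 14.7% and 11.7% of all IDs were. The log2 difference was above 0 for 113 genes, with a median of 0.29 against 0.01 for all IDs tested.

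Which way the list as a whole leaned depended on which of the low libraries were kept. Without 3798 control 3, 65 genes were above 0 and 85 below, the median was -0.13, and limma called 21 higher, all among the 23, and 4 lower, where 9.19% and 6.46% of all IDs were called. Without 3798 silenced 4, 137 genes were above 0 and 13 below, with a median of 0.51. Without all 3 low libraries 84 were above 0 and 66 below, with a median of 0.08, and limma called 29 higher and 6 lower, where 9.85% and 7.0% of all IDs were called. In 25 of the 150 genes each silenced library of 3798 was above each control, and in 0 genes below, against 7.75% and 6.41% of eligible IDs. These counts include 3798 control 3, the lowest of its group in 138 genes, which leaves little room for silenced libraries below every control. They were not repeated without it, so the 0 does not show that no gene fell.

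**Figure D4:**
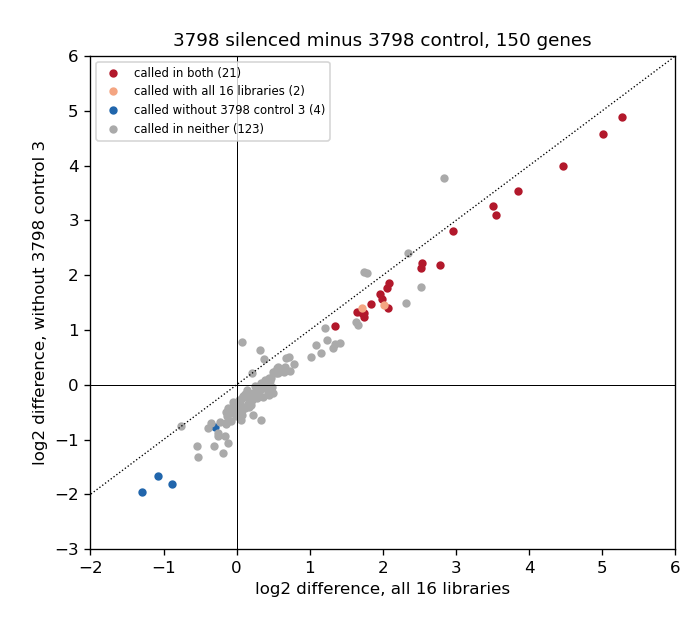
Difference between 3798 silenced and 3798 control libraries for each of the 150 genes, as a log2 difference from limma, over all 16 libraries (horizontal) and without 3798 control 3 (vertical); the dotted line marks equal values. The 21 genes called in both fits lie along the upper arm, the 4 called lower without 3798 control 3 at the lower left, and most of the 123 called in neither lie below the dotted line.

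The 23 genes that rose had log2 differences of 1.35 to 5.27 with a median of 2.07, and 14 of them were at 2 or more. That their medians were lowest in the JX controls was set by the choice of genes, and that they were lower in 3798 controls than in 3798 silenced libraries by the call. The JX silenced libraries entered that call only through the filter and the shared estimate of the spread. In 21 of the 23 their median lay above the highest 3798 control. In all 23, however, the 3798 control median was the lowest of the 3 used by the choice. The JX silenced median thus could not lie below it, and nothing is read from this count. Gh_D06G211100, on chromosome D06, had the largest difference. It was at 292, 100.1, 472 and 91.2 FPKM in JX silenced and at 9.35, 0.231, 0.649 and 1.06 FPKM in JX controls. In 3798 it was at 280.5, 378, 475 and 162 FPKM in silenced libraries and at 2.14, 34.9, 3.001 and 10.7 FPKM in controls, with means of 324 ± 134 and 12.7 ± 15.3 FPKM (SD, n = 4 each). The groups of 3798 did not overlap, while JX control 1 lay above 3798 controls 1 and 3, and the log2 difference was 5.27 (SE 0.89, limma adjusted p = 0.0012).

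The smallest p belonged to Gh_A03G009500, on chromosome A03. It was at 71.8, 32.1, 38.2 and 44.5 FPKM in 3798 silenced libraries and at 6.52, 4.999, 3.73 and 6.32 FPKM in 3798 controls, with means of 46.7 ± 17.5 and 5.39 ± 1.299 FPKM (SD, n = 4 each). The log2 difference was 2.96 (SE 0.32, limma adjusted p = 1.3e-05). In JX the same gene was at 20.2, 12.8, 10.3 and 6.38 FPKM in silenced libraries and at 0.728, 0.801, 0.957 and 1.87 FPKM in controls. Its values thus did not overlap between silenced and control libraries of 3798. They did not overlap in JX either, but that comparison was used by the choice and nothing is read from it. Gh_D10G248600, on chromosome D10, followed, at 131, 186, 158 and 44.5 FPKM in 3798 silenced libraries and 12.4, 9.36, 3.81 and 7.02 FPKM in 3798 controls, with 3.84 as its log2 difference (SE 0.47, limma adjusted p = 7.2e-05). Its JX silenced libraries were at 78.3, 141, 226 and 186 FPKM and its JX controls at 3.06, 0.708, 1.68 and 1.59 FPKM.

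The 2 genes with the smallest p in the other direction did not pass. Gh_D07G010500, on chromosome D07, was at 14.3, 18.3, 10.6 and 7.02 FPKM in 3798 silenced libraries and at 48.2, 47.0, 7.27 and 47.0 FPKM in 3798 controls, with -1.299 as its log2 difference (SE 0.54, limma adjusted p = 0.13). Controls 1, 2 and 4 were above every silenced library and control 3 was the exception, and without it the difference was -1.96 (SE 0.36) and passed (limma adjusted p = 0.0024). Gh_D12G181600, on chromosome D12, was at 3.05, 6.15, 4.43 and 1.16 FPKM in 3798 silenced libraries and 8.03, 9.38, 1.84 and 18.8 FPKM in 3798 controls. Its log2 difference was -1.07 (SE 0.58, limma adjusted p = 0.26), and -1.66 (SE 0.50, limma adjusted p = 0.038) without control 3. The 2 others called lower without that library, Gh_A07G057800 and Gh_D11G030300, had differences of -1.82 and -0.77 there (limma adjusted p = 0.025 and 0.039).

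**Figure D5:**
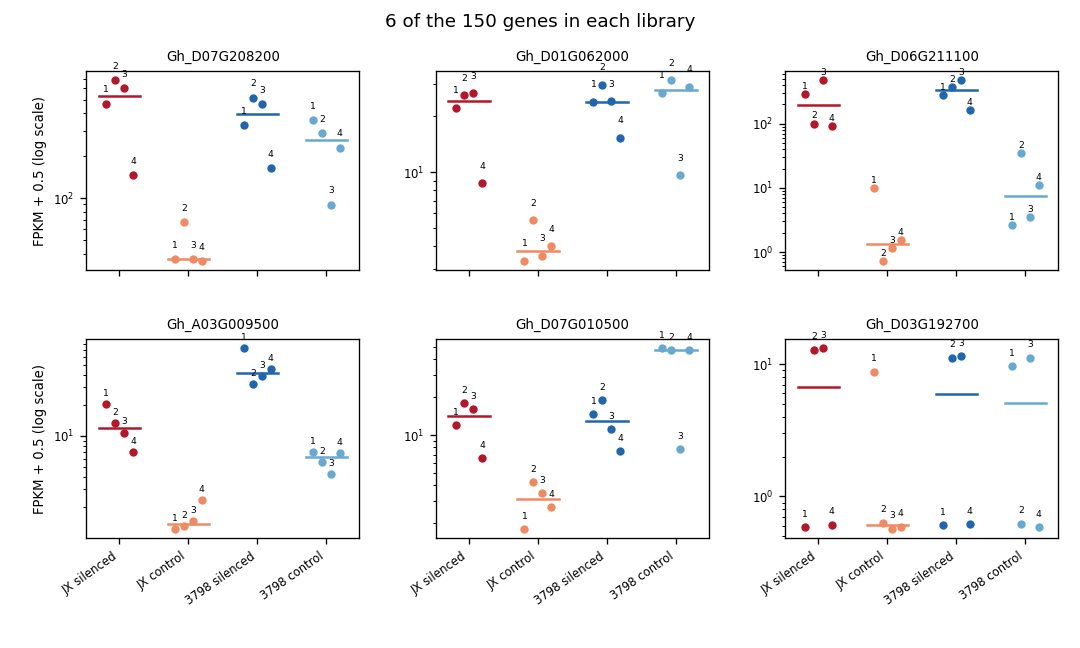
FPKM + 0.5 on a log scale for 6 of the 150 genes, with 1 dot per library labelled by its replicate number and a line at the group median. Gh_D07G208200 and Gh_D01G062000 show low JX controls beside a low 3798 control 3 and low silenced libraries 4; Gh_D06G211100 and Gh_A03G009500 have 3798 controls below the 3798 silenced libraries; Gh_D07G010500 has 3798 controls 1, 2 and 4 at 47.0 to 48.2 FPKM; Gh_D03G192700 has libraries of at least 8.25 FPKM and libraries of at most 0.133 FPKM in each group.

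Between the silenced libraries of the strains, JX silenced minus 3798 silenced, limma called 0 of the 150 genes, as it did for 0.0% of all 55040 IDs in either direction. At an unadjusted p under 0.05 there were 1 higher and 12 lower among the 150, where 5.09% of all IDs were higher and 2.8% lower. This comparison shares the 3798 silenced libraries with the one above. Both medians also entered the choice, the JX silenced median as the lowest of 3 for 62 genes and the 3798 silenced median for 17. The values of this comparison are thus not free of the choice. Without JX silenced 4 the counts at an unadjusted limma p under 0.05 were 2 higher and 5 lower, where 1693 and 1138 of 54828 IDs were. Without all 3 low libraries they were 1 and 26, where 3022 and 1770 of 54379 IDs were. The differences ran from -1.91 to 1.25 and were within 1 for 141 genes on the log2 scale, with a median standard error of 0.44. They were below 0 for 116 genes, with a median of -0.27. Without JX silenced 4 they were below 0 for 67, with a median of 0.06, and without 3798 silenced 4 for 137, with a median of -0.46. With both of these and 3798 control 3 left out they were below 0 for 102, with a median of -0.19.

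The smallest p was again that of Gh_A03G009500, lower in JX silenced by the values given above, by a difference of -1.91 on the log2 scale (SE 0.32, limma adjusted p = 0.16). Gh_A10G160900, on chromosome A10, came next, at 18.6, 22.7, 22.8 and 9.25 FPKM in JX silenced and 63.8, 32.1, 43.8 and 42.5 FPKM in 3798 silenced libraries, a difference of -1.33 (SE 0.33, limma adjusted p = 0.47). For both genes all 4 JX silenced libraries lay below all 4 of 3798. In the other direction, Gossypium_hirsutum_newGene_6990 was at 528, 257, 594 and 287 FPKM in JX silenced and 185, 203, 221 and 137 FPKM in 3798 silenced libraries, a difference of 1.08 (SE 0.37, limma adjusted p = 0.56). Gh_D11G319600 was at 80.6, 27.7, 93.7 and 22.0 FPKM in JX silenced and 32.1, 40.9, 37.0 and 19.2 FPKM in 3798 silenced libraries, a difference of 0.57 (SE 0.44, limma adjusted p = 0.74), and its groups overlapped.

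By their IDs the 150 genes were spread over all 26 chromosomes. There were 80 on chromosomes of the D subgenome (53.3%, against 46.7% of eligible IDs) and 63 on those of the A subgenome (42.0%, against 45.8%), with 2 on contigs and 5 named newGene without a position (3.33%, against 6.17%). Chromosome D05 held 14 (9.33%, against 5.51% of eligible IDs), D12 held 12 (8%, against 4.01%) and D11 held 10 (6.67%, against 4.86%). Chromosomes A04, D04 and D13 held 1 each. The 8 on D07 were 5.33% of the genes, against 3.55% of eligible IDs. These shares are descriptions and were not tested.

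Several of the genes lay close together in the order of IDs. In 5 places 2 of them had adjacent IDs in the table, and 9 pairs lay within 5 steps, which involves 16 genes. How many such pairs other lists of eligible IDs would hold was not counted, so these numbers are descriptions only. Gh_D01G062000 and Gh_D01G062100, on chromosome D01, were such a pair. The first was at 21.8, 25.5, 26.2 and 8.18 FPKM in JX silenced, 2.81, 4.98, 3.03 and 3.47 FPKM in JX controls, 23.5, 29.3, 23.6 and 14.8 FPKM in 3798 silenced and 26.4, 30.9, 9.11 and 28.4 FPKM in 3798 controls. The second was at 14.5, 14.99, 17.8 and 4.95 FPKM in JX silenced, 2.02, 3.82, 2.71 and 2.28 FPKM in JX controls, 16.2, 18.003, 21.4 and 9.93 FPKM in 3798 silenced and 19.3, 21.4, 6.21 and 26.2 FPKM in 3798 controls. Libraries high or low in one were high or low in the other, and the deviations from group means correlated at 0.964 over the 16 libraries.

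The other pair named by rule, Gh_D06G210900 and Gh_D06G211100, moved from library to library in the same way, with a correlation of 0.936. Gh_D06G210900 was at 174, 62.1, 235 and 26.1 FPKM in JX silenced and 3.32, 0.369, 0.432 and 0.663 FPKM in JX controls. In 3798 it was at 142, 109, 193 and 90.4 FPKM in silenced libraries and 1.19, 17.7, 1.07 and 4.65 FPKM in controls, and rose by a log2 of 5.02 (SE 0.80, limma adjusted p = 0.00079). In both genes JX control 1 and 3798 control 2 were the highest of their groups. The 3 remaining adjacent pairs had correlations of 0.974 (Gh_D11G319500 and Gh_D11G319600), 0.810 (Gh_D12G274800 and Gh_D12G274900) and 0.218 (Gh_D10G248600 and Gh_D10G248700). Reads of near-identical copies or of overlapping genes may have been shared in the authors' counting, so adjacent genes need not be independent measurements.

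Of the 23 genes that rose in 3798, 11 were among the 16 with a near neighbour in the list. The matching share among all IDs called higher was not counted, and neighbours need not be independent, so nothing is read from this count. A group of 3 on chromosome D05, chosen after its values were seen, lay within 7 steps. Gh_D05G286100 was at 95.7, 87.5, 62.0 and 44.5 FPKM in 3798 silenced libraries and 22.4, 23.8, 10.6 and 32.8 FPKM in 3798 controls. Gh_D05G286600 was at 264, 175, 201 and 148 FPKM in the silenced libraries and 90.0, 54.1, 19.6 and 109 FPKM in the controls, and Gh_D05G286900 at 239, 258, 297 and 114 FPKM and at 3.93, 30.8, 3.16 and 16.7 FPKM. In each of the 3 genes every silenced library of 3798 was above every control. Their log2 differences were 1.72 (SE 0.46), 1.75 (SE 0.48) and 4.47 (SE 0.76), with limma adjusted p of 0.023, 0.026 and 0.0013, and the first did not pass without 3798 control 3, at 1.40.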

How the data were processed

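The authors deposited 1 table of FPKM for 70422 gene IDs in 16 libraries. The unit comes from the table's name and its values, while aligner, counter, build, annotation and strandedness are not stated in the sources used here. Groups and replicate numbers come from the titles, and columns were matched through the sample descriptions.

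The members were chosen with earlier results of these data known, as were the tests, the genes named and the alternatives. Values were log2(FPKM + 0.5), for IDs at or above 0.5 FPKM in at least 4 libraries (55040). All 16 libraries entered 1 fit by limma 3.58.1 (R 4.3.3), in which each group had its own mean and the moderation of variances was robust and followed a trend with level. Two-sided p-values were adjusted by Benjamini-Hochberg over all IDs tested, and 0.05 was the threshold. The procedure was tested on simulated data with independent noise in each library. Those data held no joint deviation of libraries such as that of the low libraries here, so the test does not cover it. FPKM are not counts, so no count model was used. Correlations and shares are descriptions.

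Named by rule were the 2 genes with the highest ratio, ranks 150 and 151, the 2 with the highest level, for each tested comparison the 2 with the smallest p in each direction, and 2 adjacent pairs, ties being taken by rank. Python 3.11.15 with numpy 2.4.6, pandas 2.3.3 and matplotlib 3.10.9 was used.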

Additional observations from a re-analysis of the deposited data

Results flagged for a closer look

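Among 76 groups of 4 values checked, 8 had 1 library far from the other 3. The limit used is passed by about 5% of groups of independent, normally distributed values. Here untransformed FPKM were checked, mostly of genes named for their values and some of them adjacent. That rate need not hold for them, so the 8 are descriptions only. The summed level of the 150 genes was 1698 FPKM in 3798 control 3, with the next library of its group at 5008 FPKM. Gh_D07G010500 was at 7.27 FPKM in the same library, with the next at 47.0 FPKM. Gh_D07G208200 was at 67.3 FPKM in JX control 2, with the next at 36.3 FPKM. Gh_D06G210900 and Gh_D06G211100 were at 3.32 and 9.35 FPKM in JX control 1, with the next at 0.663 and 1.06 FPKM, and these adjacent genes need not be independent. The 3 other JX controls were listed at 0, and any value above 0 then stands apart, for Gh_A10G221800 in JX control 4 (18.1 FPKM) and for Gossypium_hirsutum_newGene_9684 in JX control 1 (9.63 FPKM). Gh_A10G221800 was also listed at 0 in 3798 silenced 4, with the next at 220.2 FPKM.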

How the results depend on the processing

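In 3798, the count of called genes (23) stayed within 1.5 times of itself under other pseudocounts, filters and scalings, in a fit of the compared groups only, with the replicate number as a replicate block (21 genes) and with library weights. It was 35, of which 6 were lower, without 3798 control 3, 3798 silenced 4 and JX silenced 4, where 9.85% of all IDs were called higher and 7.0% lower. The count of lower genes was 0 over all libraries, 1 with library weights and 0 to 4 when each library was left out in turn. Between silenced libraries 0 genes were called, and 0 to 1 when each library was left out in turn; the 1 was Gh_A03G009500 without JX silenced 1, at -2.18 (limma adjusted p = 0.043). It was called 0 times under the replicate block. Same-numbered libraries deviated together with correlations between -0.23 and 0.36, so the numbers were not taken as pairs.

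The choice of genes shared at least 107 of 150 with every alternative: 107 with a floor of 5 FPKM, 140 with a floor of 1 FPKM, 127 with group means, 135 with a constant of 0.1 or 1, 146 with median-ratio scaling, 134 without the 3 libraries, and 124 to 149 with 1 library left out. Depth is unknown, so counting error could not be set beside low values.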
